A study of Homo sapiens with 8 samples.

Results

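The autophagy and lysosome genes are 42 genes, taken from a list of names with no threshold on a measured value, though the list was drawn up with earlier results of these data known: 25 act in autophagy, 15 encode lysosomal proteins, and TFEB and TFE3 are the transcription factors that drive both. They were followed in CCRF-CEM-C7-14, a clonal, glucocorticoid-responsive human T-cell leukaemia line, among 19775 genes measured on expression arrays. Cells in 1 µM dexamethasone, a synthetic glucocorticoid, were sampled after 2 h (3 arrays) and 10 h (2 arrays), and the comparison group was untreated cells at 0 h (3 arrays). Every group, 0 h included, was in charcoal-stripped serum, which is poor in steroids, once the hormone treatment began. Without vehicle-treated cells at the later times, the effects of hormone and of hours in that medium cannot be told apart. Replicates are called biological in the labels with no word on separate cultures, so the p-values cover the spread between these arrays, part of which may be technical.

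Autophagy wraps cytoplasm in a membrane, the phagophore, that closes into an autophagosome and fuses with a lysosome, where hydrolases in an acid lumen digest the contents. ULK kinases start the process, a lipid kinase complex built on BECN1 marks the membrane, and 2 ubiquitin-like conjugation routes attach proteins of the ATG8 family to its lipid. TFEB and TFE3 bind a short E-box, the core of the CLEAR element, in the promoters of many lysosomal genes. In lymphoid leukaemia cells, glucocorticoids are known both to induce autophagy and to kill the cells.

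The E-box is the sequence through which TFEB and TFE3 are known to act, so promoters are shown here for the genes whose values are described most closely below. RefSeq promoters of GRCh38.p14, from 250 bases before to 50 after the transcription start, matched 36 of the 42 genes with 43 promoters. ATP6V1H, BNIP3L, CTSB, HEXA, LAMP2 and UVRAG are named without a promoter. The promoters below are written 5′ to 3′ on the strand of the gene, and capitals mark each CACGTG. LAMP1 (chr13:113296989-113297288, plus strand) encodes the most abundant lysosomal membrane glycoprotein and is shown because it held the most copies of the hexamer, 6. ATP6V0D1 (chr16:67481108-67481407, minus strand) and CTSD (chr11:1763878-1764177, minus strand) are shown because they had the highest lysosomal log2 fold changes at 10 h. GABARAPL1 (chr12:10212627-10212926, plus strand) is shown because it had the highest value of all 42 genes at 10 h, and its window held no CACGTG.
LAMP1: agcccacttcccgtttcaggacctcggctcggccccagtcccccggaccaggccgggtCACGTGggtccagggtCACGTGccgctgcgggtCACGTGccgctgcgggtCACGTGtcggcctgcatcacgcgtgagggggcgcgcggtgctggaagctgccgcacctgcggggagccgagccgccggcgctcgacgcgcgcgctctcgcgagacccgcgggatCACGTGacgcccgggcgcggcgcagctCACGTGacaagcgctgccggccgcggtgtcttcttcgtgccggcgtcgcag
ATP6V0D1: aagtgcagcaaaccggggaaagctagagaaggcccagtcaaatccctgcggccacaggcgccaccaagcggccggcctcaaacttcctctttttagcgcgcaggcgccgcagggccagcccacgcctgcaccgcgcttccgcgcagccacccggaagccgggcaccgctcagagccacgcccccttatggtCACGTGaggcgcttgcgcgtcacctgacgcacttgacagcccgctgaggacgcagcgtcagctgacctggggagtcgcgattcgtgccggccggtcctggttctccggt
CTSD: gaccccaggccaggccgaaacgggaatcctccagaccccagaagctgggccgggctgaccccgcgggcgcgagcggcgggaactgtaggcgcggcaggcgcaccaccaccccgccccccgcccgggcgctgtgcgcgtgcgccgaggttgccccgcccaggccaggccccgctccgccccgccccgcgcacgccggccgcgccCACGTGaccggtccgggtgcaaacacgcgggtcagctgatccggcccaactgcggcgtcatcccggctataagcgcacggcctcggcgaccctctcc
GABARAPL1: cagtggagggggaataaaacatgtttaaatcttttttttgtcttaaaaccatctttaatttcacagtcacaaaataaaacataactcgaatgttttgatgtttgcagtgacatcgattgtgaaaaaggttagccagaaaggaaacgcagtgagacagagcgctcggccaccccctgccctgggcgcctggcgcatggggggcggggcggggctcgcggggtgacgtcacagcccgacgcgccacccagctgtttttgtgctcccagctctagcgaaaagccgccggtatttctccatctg

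Of all 35116 RefSeq promoters of this length, 2548 (7.26%) held CACGTG, which reads the same on both strands. It was present in 10 of the 43 promoters, those of 7 of the 11 matched lysosome genes (LAMP1, CTSA, GAA, MCOLN1, ATP6V0D1, CTSD and NEU1) and 3 of the 23 matched autophagy genes (ATG3, ATG14 and BNIP3). The longer TCACGTGA, which contains the hexamer, was in 0.980% of all promoters and in 6 of the 43. Its carriers were ATG3, ATP6V0D1, CTSA, GAA, LAMP1 and MCOLN1. No promoter of TFEB or TFE3 held either. The palindromic glucocorticoid response element, searched on both strands as AGAACA followed after any 3 bases by TGTTC, was in 4 of the 35116 promoters and in 0 of the 43. A single arm of that element, AGAACA, was in 14.8% of all promoters and in that of ATG3. The forkhead motif GTAAACA, also searched on both strands, was in 3.42% of all promoters and in that of CTSL. A match describes letters in this window and is neither a bound site nor a cause of the values below.

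**Figure D1:**
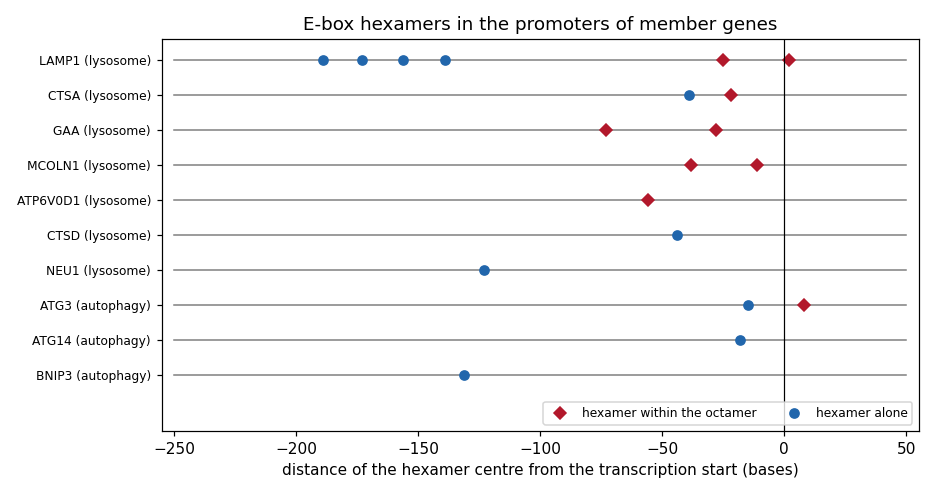
Positions of CACGTG in the 10 promoters that held it, with the distance of its centre from the transcription start in bases on the x axis. Diamonds are hexamers within TCACGTGA, circles are hexamers alone, and LAMP1 carried 6 of them.

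Values are log2 expression of the brightest probe set of each gene, so a difference of 1 is a 2-fold change. A gene counted as above background on an array where its value exceeded the highest of 27 Bacillus negative control probe sets. By this measure 39 of the 42 genes (92.9%) were above background on all 8 arrays, against 63.6% of all genes. GABARAPL1 was above it on 7 arrays, ULK2 on 6 and CTSL on 4, and no gene was at background throughout. Each role described below had at least 1 gene above background on all 8 arrays. Passing this measure does not show that a gene is expressed in these cells. Of the markers measured, 4 of 5 stromal and epithelial, 2 of 3 erythroid and 2 of 6 myeloid ones also passed it on all 8 arrays.

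Facts of the whole series bear on these values. TSC22D3, a direct glucocorticoid target used to check that the hormone acted, rose by 2.78 ± 0.19 at 2 h and by 4.30 ± 0.22 at 10 h on the log2 scale (SE; limma adjusted p = 1.35e-06 and 7.22e-09). Array medians lay between 4.68 and 5.01, and the 3 lowest (replicate 2 at 0 h, replicate 3 at 2 h and replicate 1 at 10 h) form a set apart, with 1 array of each time. Median log2 values on those 3 arrays were below the other 5 by similar amounts for the 42 genes (-0.18) and for all genes (-0.21). Of the T-lineage markers CD3D, CD3G, CD247, LCK, CD5, CD7 and CD2, 6 of 7 were above background on all arrays, CD2 being the exception. Of the 4 B-cell markers measured 3 were above it, and CD79A read 9.28 and 9.09 at 10 h, against 8.27 to 8.79 at 0 h (adjusted p = 0.518). CD79B lay the other way, at 5.97 and 6.21 at 10 h, against 6.31, 6.33 and 6.48 at 0 h, PAX5 overlapped, and MS4A1 was at background on all arrays. Summed log2 levels of the measured B-cell markers were 24.5 to 24.6 at 10 h, against 23.5 to 24.8 at 0 h. The 3′ minus 5′ signal of actin, a measure of RNA integrity, was 0.29 and 0.36 at 10 h. It was 0.40 to 0.61 at 2 h and 0.32 to 0.67 at 0 h. On the 3 arrays of lowest median it was 0.29 to 0.40, and on the other 5 it was 0.36 to 0.67. The same signal of GAPDH was 0.23 and 0.03 at 10 h, 0.12 to 0.36 at 2 h and 0.19 to 0.25 at 0 h. The part of these differences in the values below was not tested.

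None of the 42 genes passed the test at 2 h or at 10 h against 0 h, nor at 10 h against 2 h (limma, Benjamini-Hochberg adjusted over all genes, threshold 0.05). The share of all genes called was 0.0202% (4 genes) at 2 h, 0.354% (70 genes) at 10 h and 0.167% (33 genes) between 10 h and 2 h. At an unadjusted p below 0.05 there were 0 of the 42 at 2 h (0.946% of all genes), 3 at 10 h (GABARAPL1, ATP6V0D1 and ATG9A; 3.44% of all genes) and 1 at 10 h against 2 h (ATP6V0D1; 3.15% of all genes). The lowest adjusted p was 0.846, of GABARAPL1 at 10 h, followed by 0.922 of ATP6V0D1. The 95% intervals give a range for the difference of each gene taken alone, in this fit and on its probe set. They are not adjusted for the number of genes. They lay within a 2-fold change either way for 42 of 42 genes at 2 h, and for 41 of 42 at 10 h, where the interval of GABARAPL1 reached 1.25. The smallest log2 difference called at 10 h, in any gene, was 1.01, and the differences described below are all smaller.

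**Figure D2:**
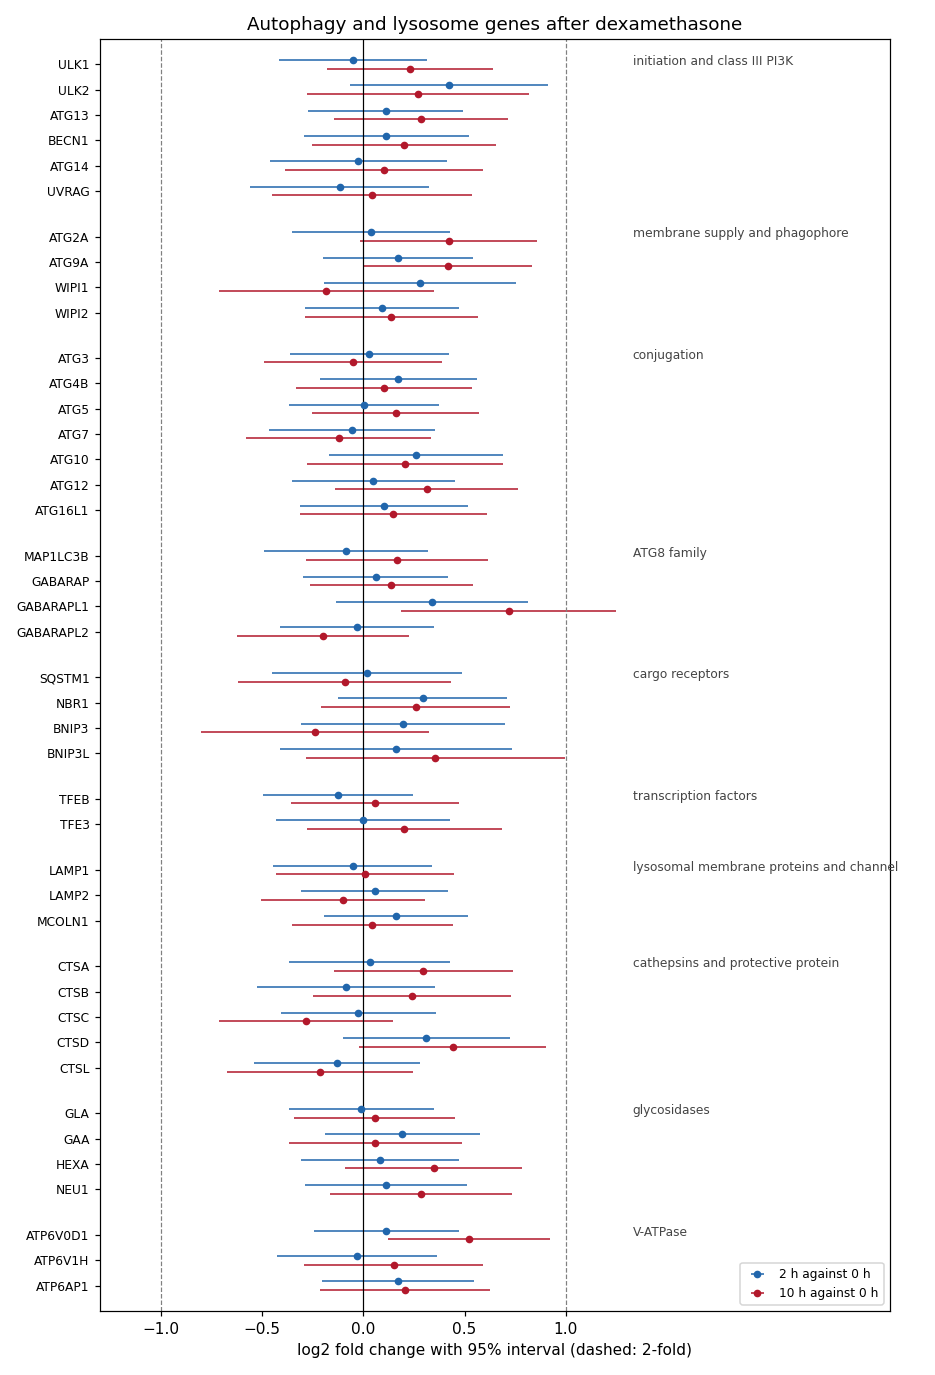
Log2 fold changes at 2 h against 0 h and at 10 h against 0 h (x axis) of the 42 genes, grouped by role, with 95% intervals from limma and dashed lines at a 2-fold change. The interval of GABARAPL1 at 10 h is the only one that passes the upper line, and none of the genes was called.

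Without a call, the genes are described by sign and size. At 10 h the log2 fold change against 0 h was positive in 33 of the 42 genes, against 44.6% of all genes and 48.1% of the 13068 genes with a mean above background. It was positive in 19 of the 25 autophagy genes, with a median of 0.16, in 12 of the 15 lysosome genes, with a median of 0.15, and in both transcription factors. The median was -0.02 over all genes and -0.01 over those with a mean above background. Both 10 h arrays were above all 3 arrays at 0 h in 10 of the 42 genes, against 6.56% of all genes. Both were below in 0 of the 42, against 6.51%. Over genes with a mean above background these shares were 8.12% and 6.34%. The 10 were ULK1, ATG13, ATG2A, ATG9A, ATG12 and GABARAPL1 in autophagy, and CTSA, CTSD, HEXA and ATP6V0D1 in the lysosome. These counts describe the list and were not tested, since genes on an array share its level.

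The 2 arrays at 10 h differed in how far they lay above 0 h. Relative to each gene's mean at 0 h, the median autophagy gene was 0.09 higher on replicate 1 at 10 h and 0.26 higher on replicate 2, and the median lysosome gene 0.04 and 0.23 higher. The same medians over all genes were -0.09 and 0.05. Without replicate 2 at 10 h, 26 of the 42 genes were positive and 0 had an unadjusted p below 0.05; without replicate 1, 36 were positive and 5 did. Within the set of 3 low-median arrays, a single array of each time, the median difference of the 42 genes between 10 h and 0 h was 0.11, against 0.06 for all genes. Within the other arrays it was 0.21, against -0.03 for all genes. The difference was positive in both sets in 27 of the 42 genes, against 28.1% of all genes.

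**Figure D3:**
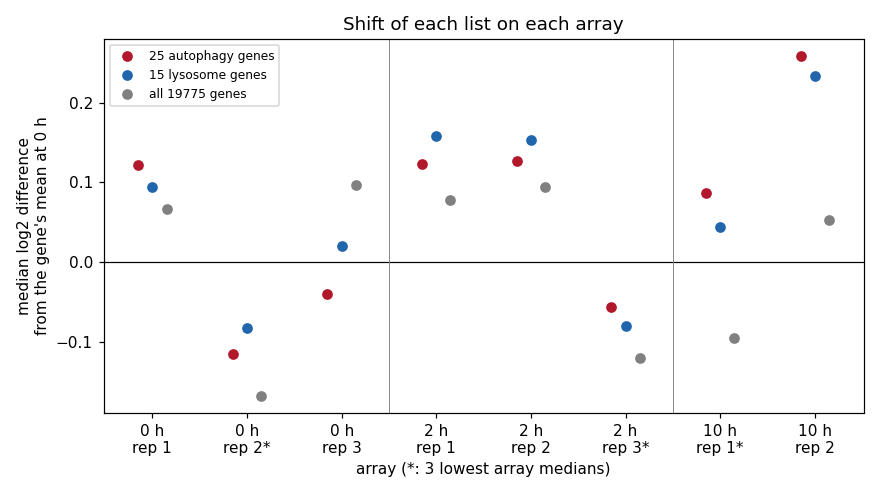
Median log2 difference from each gene's 0 h mean (y axis) on each array (x axis) for the 25 autophagy genes, the 15 lysosome genes and all 19775 genes. At 10 h the autophagy median is 0.09 and 0.26, and the lysosome median 0.04 and 0.23, above the all-gene medians of -0.09 and 0.05 on the same arrays.

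**Figure D4:**
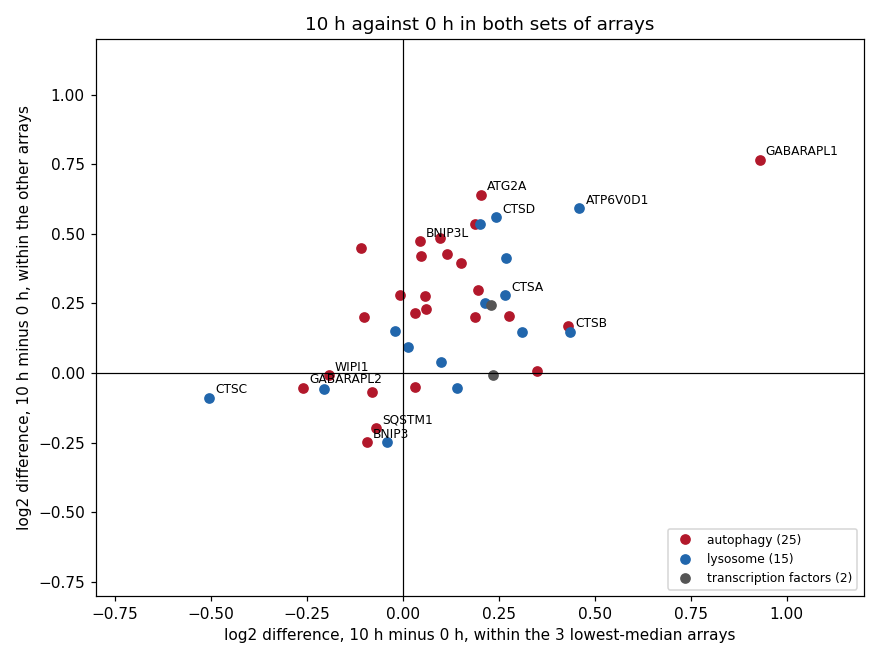
Log2 difference between 10 h and 0 h for each of the 42 genes, within the 3 arrays of lowest median (x axis) and within the other arrays (y axis), with class by colour. In 27 genes both differences are positive, and GABARAPL1 lies farthest out at 0.93 and 0.77.

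Genes that start autophagy had small positive values at 10 h in 6 of 6 cases, and none was called. ULK1, the kinase that starts autophagosome formation and is held off by mTORC1 in fed cells, read 5.43, 5.43 and 5.55 at 0 h, 5.18, 5.60 and 5.48 at 2 h, and 5.71 and 5.70 at 10 h. Its 10 h arrays lay above all the others, by 0.23 ± 0.19 over 0 h (log2 fold change ± SE). Its paralogue ULK2 read 4.18, 4.33 and 4.85 at 0 h, 5.33, 4.92 and 4.37 at 2 h, and 4.76 and 4.68 at 10 h. ULK2 had the highest 2 h value of the 42 genes, 0.42 ± 0.23, but the groups overlapped and 2 of its 3 arrays at 0 h were at background. With arrays weighted by how closely they fitted the model, ULK2 had a value of 0.84 at 2 h (limma adjusted p = 0.0472). That setting called 26 of all genes at 2 h, against 4 in the main fit. It gave 10.4% of all genes an unadjusted p below 0.05, against 0.946%. The ULK2 call was the only one of any of the 42 genes in the alternatives run. The value of ULK2 over those alternatives ranged from 0.01 to 0.84. BECN1, the scaffold of the class III phosphatidylinositol 3-kinase complex, read 9.34, 8.91 and 9.04 at 0 h, 9.39, 9.30 and 8.94 at 2 h, and 9.11 and 9.49 at 10 h, with overlap. UVRAG, a BECN1 partner linked to endosome traffic, read 7.48, 6.88 and 7.27 at 0 h, 7.23, 7.06 and 6.99 at 2 h, and 6.91 and 7.59 at 10 h. Its log2 fold change was -0.12 at 2 h, among the 3 lowest, and 0.04 at 10 h. ATG13, which holds the ULK complex together, and ATG14, which directs the lipid kinase to autophagy, had 10 h values of 0.29 and 0.10.

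Among the proteins that feed and shape the phagophore, ATG2A and ATG9A were among the 5 highest of the 42 genes at 10 h. ATG9A, a lipid scramblase carried on the vesicles that seed the phagophore, read 6.77, 7.02 and 6.59 at 0 h, 6.88, 6.91 and 7.10 at 2 h, and 7.21 and 7.21 at 10 h. Its 10 h arrays lay above the other 6, with a log2 fold change over 0 h of 0.42 ± 0.20. ATG2A, which moves lipid into the growing membrane, read 6.57, 6.53 and 6.50 at 0 h, 6.47, 6.84 and 6.40 at 2 h, and 6.74 and 7.18 at 10 h. Its value of 0.42 ± 0.21 rested on replicate 2 at 10 h, and was 0.20 without that array. WIPI1, which reads the lipid mark on the phagophore, read 5.70, 5.55 and 6.38 at 0 h, 6.18, 6.17 and 6.11 at 2 h, and 5.36 and 6.03 at 10 h. Both 10 h arrays were below all 2 h arrays, by -0.46 ± 0.25, while they overlapped those at 0 h (-0.18 ± 0.25). Its relative WIPI2 had 0.14 at 10 h.

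The conjugation genes had 10 h log2 fold changes from -0.12 to 0.31, with 5 of 7 positive and none called. ATG7, the enzyme that activates both ATG12 and the ATG8 proteins, read 6.57, 6.38 and 6.75 at 0 h, 6.78, 6.56 and 6.19 at 2 h, and 6.30 and 6.59 at 10 h. Its value of -0.12 ± 0.22 at 10 h was the fifth lowest of those measured above background. ATG12, the ubiquitin-like protein joined to ATG5, read 8.25, 8.28 and 8.05 at 0 h, 8.61, 8.08 and 8.04 at 2 h, and 8.38 and 8.64 at 10 h. Its 10 h arrays were above those at 0 h (0.31 ± 0.21) but not above all at 2 h. ATG10, which passes ATG12 to ATG5, was the only gene of the 42 whose 2 h arrays all lay above 0 h: 6.76, 6.58 and 6.55 at 2 h, against 6.47, 6.10 and 6.54 at 0 h. Such arrays were seen in 2.94% of all genes at 2 h, and arrays all below 0 h in 1.10% of all genes and 0 of the 42. Over genes with a mean above background the shares were 3.67% and 0.658%. ATG3, ATG4B, ATG5 and ATG16L1 overlapped between 10 h and 0 h, with values from -0.05 to 0.16.

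The ATG8 family, the proteins that coat the autophagosome and bind cargo receptors, held both the highest of the 42 values at 10 h and the third lowest among genes above background. GABARAPL1 read 5.19, 4.48 and 5.31 at 0 h, 5.47, 5.30 and 5.23 at 2 h, and 5.41 and 6.02 at 10 h. Both 10 h arrays were above all 3 at 0 h, and its log2 fold change was 0.34 ± 0.23 at 2 h and 0.72 ± 0.25 at 10 h (unadjusted p = 0.0111, adjusted p = 0.846). The lowest array, replicate 2 at 0 h, was at background and is among the 3 of lowest median, and the fold change was 0.46 without it and 0.41 without replicate 2 at 10 h. With a block for the low-median arrays it was 0.80 with an adjusted p of 0.0951, the lowest of its 20 alternatives. The other GABARAPL1 probe set gave 0.32 at 10 h. MAP1LC3B, whose lipid-bound protein is the standard marker of autophagosomes, read 9.67, 9.39 and 9.45 at 0 h, 9.73, 9.43 and 9.09 at 2 h, and 9.57 and 9.76 at 10 h. It overlapped at both times, with -0.09 ± 0.19 at 2 h and 0.17 ± 0.21 at 10 h. GABARAPL2 read 10.53, 10.32 and 10.61 at 0 h, 10.53, 10.42 and 10.41 at 2 h, and 10.06 and 10.52 at 10 h, with 1 of the 10 h arrays low and the other among the 0 h values (-0.20 ± 0.20). GABARAP had 0.14 at 10 h.

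Cargo receptors link what is to be degraded to the ATG8 proteins, and 2 of 4 were positive at 10 h. SQSTM1, which carries ubiquitinated protein, read 7.89, 7.70 and 7.00 at 0 h, 7.43, 7.79 and 7.42 at 2 h, and 7.63 and 7.25 at 10 h, a spread at 0 h wider than any difference between times. BNIP3, a mitochondrial receptor induced by low oxygen, read 8.26, 8.15 and 8.89 at 0 h, 8.34, 8.38 and 9.17 at 2 h, and 8.06 and 8.33 at 10 h. It was -0.24 ± 0.27 against 0 h, and both 10 h arrays were below all at 2 h (-0.44 ± 0.27). Replicate 3 at 2 h, at 9.17, was the highest of the 8 arrays. Over the alternatives the difference of BNIP3 between 10 h and 2 h ranged from -0.58 to -0.03. BNIP3L, its paralogue that clears mitochondria from maturing red cells, read 10.04, 10.21 and 9.23 at 0 h, 10.02, 9.40 and 10.54 at 2 h, and 10.26 and 10.11 at 10 h. Its arrays at 0 h and 2 h spread over more than a 2-fold range, and the value of 0.36 ± 0.30 at 10 h is within that spread. NBR1, a receptor that works with SQSTM1, had 0.26 at 10 h.

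TFEB and TFE3, which mTORC1 keeps in the cytoplasm, are controlled mainly through phosphorylation, which arrays do not measure. TFEB read 5.95, 5.70 and 6.14 at 0 h, 5.81, 5.90 and 5.71 at 2 h, and 5.93 and 6.04 at 10 h. TFE3 read 8.70, 8.32 and 8.35 at 0 h, 8.40, 8.86 and 8.11 at 2 h, and 8.55 and 8.77 at 10 h. The groups overlapped for both genes at 10 h against 0 h, with 0.06 ± 0.20 for TFEB and 0.20 ± 0.23 for TFE3, and TFEB at -0.12 was among the 3 lowest at 2 h. The genes with CACGTG in their promoter, 10 in number, had a median log2 fold change of 0.08 at 10 h with 8 positive. The 26 matched genes without it had a median of 0.16 with 20 positive. The order was the other way at 2 h against 0 h, with medians of 0.11 with CACGTG and 0.05 without. At 10 h against 2 h they were 0.09 and 0.06, and none of these differences was tested.

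**Figure D5:**
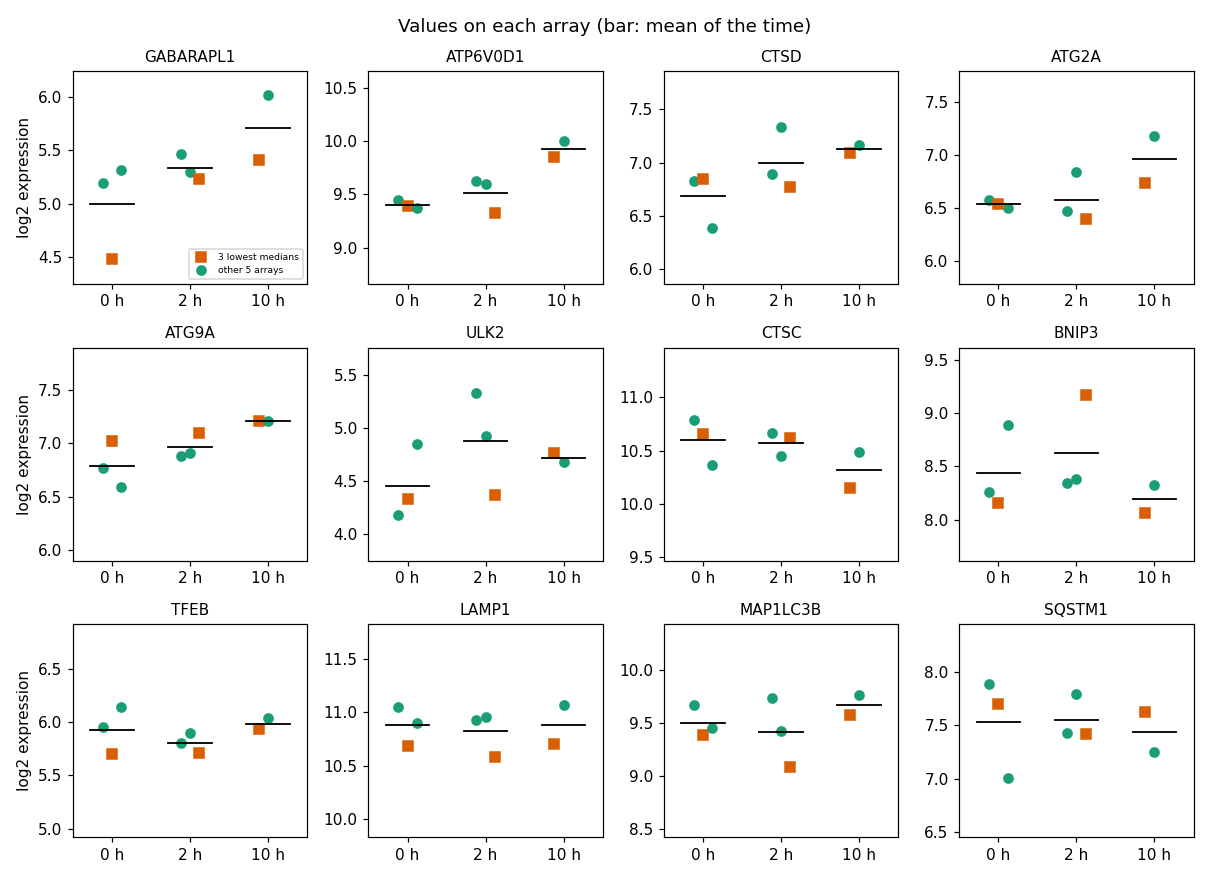
Log2 expression (y axis) of 12 of the 42 genes on each array at 0, 2 and 10 h (x axis), with bars at the mean of a time and orange squares for the 3 arrays of lowest median. The 10 h arrays lie above all 0 h arrays for GABARAPL1, ATP6V0D1, CTSD, ATG2A and ATG9A, and overlap them for the other 7 genes.

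Among lysosome genes, a subunit of the proton pump and the protease CTSD had the highest values. ATP6V0D1, a subunit of the membrane sector of the vacuolar ATPase that acidifies the lumen, read 9.44, 9.39 and 9.38 at 0 h, 9.63, 9.60 and 9.32 at 2 h, and 9.85 and 10.00 at 10 h. Both 10 h arrays lay above the other 6, by 0.52 ± 0.19 over 0 h and 0.41 ± 0.19 over 2 h (unadjusted p = 0.0137 and 0.0460, adjusted p = 0.922 and 1.00). Its value at 10 h against 0 h was the steadiest of the highest 5, from 0.45 to 0.60 over 20 alternatives. Not all of these could move it. ATP6V0D1 has 1 probe set, as do CTSD, ATG2A and ATG9A, so another choice of probe set left their values unchanged. GABARAPL1 has 2. The value of ATP6V0D1 was 0.46 within the low-median arrays and 0.59 within the others. ATP6V1H, of the catalytic sector, and the accessory subunit ATP6AP1 had 0.15 and 0.20, with overlap.

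The proteases differed in sign at 10 h, and none was called. CTSD, the aspartic protease, read 6.83, 6.85 and 6.39 at 0 h, 6.89, 7.33 and 6.77 at 2 h, and 7.09 and 7.17 at 10 h. Its 10 h arrays were above those at 0 h (0.44 ± 0.22), and its 2 h value of 0.31 ± 0.20 was the third highest. CTSC, which activates the serine proteases of cytotoxic granules by removing dipeptides, read 10.79, 10.65 and 10.37 at 0 h, 10.66, 10.45 and 10.62 at 2 h, and 10.15 and 10.49 at 10 h. It had the lowest value at 10 h of the genes above background, -0.28 ± 0.20, while its other probe sets gave 0.06, 0.09 and 0.00. CTSB, a cysteine protease, read 6.51, 6.55 and 7.19 at 0 h, 6.39, 6.68 and 6.92 at 2 h, and 6.98 and 7.00 at 10 h, above all 2 h arrays but not above 0 h. CTSL, another cysteine protease, read 4.72, 4.35 and 4.82 at 0 h, 4.53, 4.76 and 4.21 at 2 h, and 4.31 and 4.52 at 10 h, and exceeded background on 4 of 8 arrays, so no order of times is read from it. CTSA, a carboxypeptidase that shields NEU1 from degradation, read 9.94, 9.82 and 9.43 at 0 h, 9.80, 9.94 and 9.54 at 2 h, and 10.09 and 9.96 at 10 h, with its 10 h arrays above the other 6 (0.30 ± 0.21).

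The glycosidases GLA, GAA, HEXA and NEU1, whose loss causes lysosomal storage diseases, were positive in 4 of 4 cases at 10 h, from 0.06 to 0.35. HEXA was the highest, at 9.14 and 9.59 at 10 h, against 9.09, 8.93 and 9.03 at 0 h, a margin over 0 h that rested on replicate 2. LAMP1 read 11.05, 10.69 and 10.90 at 0 h, 10.93, 10.96 and 10.59 at 2 h, and 10.70 and 11.07 at 10 h, so the gene with 6 E-boxes had a log2 fold change of 0.01 ± 0.21. On its other probe sets that value was 0.31, 0.47 and -0.03. LAMP2, the lysosomal receptor of chaperone-mediated autophagy, and the calcium channel MCOLN1 had -0.10 and 0.04.

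The early comparison showed less. At 2 h the log2 fold change was positive in 28 of the 42 genes, against 55.7% of all genes and 62.6% of those with a mean above background, and after quantile normalization in 20 of 42. The medians were 0.09 for the autophagy genes and 0.06 for the lysosome genes, or 0.03 and -0.0037 after quantile normalization. They also hung on single arrays: the autophagy median was 0.03 without replicate 2 at 2 h or without replicate 3 at 0 h, 0.06 without replicate 2 at 0 h and 0.14 without replicate 1 at 0 h, and the lysosome median 0.0127 without replicate 1 at 2 h, 0.09 without replicate 3 at 0 h, 0.10 without replicate 1 at 0 h and 0.14 without replicate 3 at 2 h. At 10 h against 2 h, 27 of 42 were positive against 42.5% of all genes. The 10 h arrays lay above all 2 h arrays in 7 genes and below in 2 (WIPI1 and BNIP3). The same was seen in 5.43% and 9.29% of all genes, and in 5.83% and 10.8% of those with a mean above background. Values were higher at 2 h than at 0 h and higher again at 10 h in 17 of the 42 genes, against 17.8% of all genes.

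Several probe sets per gene gave a further check on the measurements. The 42 genes had 101 probe sets, of which 79 were above background on all arrays and 0 were called at any time (0.333% of all single-symbol probe sets were called at 10 h). In 14 of the 23 genes with at least 2 such probe sets, all had the same sign at 10 h against 0 h. The count was 10 of 23 at 2 h against 0 h and 15 of 23 at 10 h against 2 h. The same share over all genes was not computed. The probe sets of a gene can read different transcript ends, and a value is that of its probe set.

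A wider list of pathway genes, 95 of 102 measured, was counted in the same way. None was called in any comparison. At 10 h against 0 h, 63 of the 95 were positive, against 44.6% of all genes, with a median of 0.05. The 10 h arrays lay above all 0 h arrays in 16 (16.8%) and below in 5 (5.26%), against 6.56% and 6.51% of all genes. Over genes with a mean above background the shares were 8.12% and 6.34%. The 4 highest values above background were those of ATP6AP2, SMPD1, ATP6V0E2 and EPG5. SMPD1, acid sphingomyelinase, read 6.07 and 6.11 at 10 h, against 5.91, 5.34 and 5.54 at 0 h. ATP6V0E2, a further pump subunit, read 8.93 and 8.92 at 10 h, against 8.68, 8.25 and 8.44 at 0 h, and EPG5, which tethers autophagosomes to lysosomes, 6.38 and 6.75, against 6.33, 5.91 and 6.22. ATP6AP2, an accessory protein of the pump, read 10.53 and 8.64 at 10 h, against 8.27, 10.44 and 8.49 at 0 h; the high arrays are among the 3 of lowest median, and its log2 fold change was 0.52 ± 0.63. The 4 lowest were TPCN1, LGMN, CTSF and FUNDC1. TPCN1, an endolysosomal cation channel, read 6.01 and 6.01 at 10 h, against 6.67, 6.45 and 6.39 at 0 h, and LGMN, the asparaginyl protease that processes cathepsins, 6.41 and 6.59, against 6.78, 6.87 and 6.90. Both lay below all arrays at 0 h and 2 h, with log2 fold changes of -0.49 ± 0.20 and -0.35 ± 0.19 over 0 h. CTSF, a cysteine cathepsin, and FUNDC1, a mitophagy receptor, had -0.29 and -0.28.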

How the data were processed

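Total RNA was measured on 8 arrays with 54675 probe sets each. The deposited values are log2 expression, made with RMA per the submitters' processing notes; its version, and whether the arrays were run through it together, are not given in the sources used here. By design RMA corrects background, quantile-normalizes and summarises probes, but the deposited values do not share a distribution across arrays. Array medians ran from 4.68 to 5.01, and 22.8% of all genes were lower on all 3 low-median arrays than on every other array. What lies behind this was not tested. Times came from the labels. The platform annotation gave 41091 probe sets 1 symbol, 1801 several and 11721 none. Each gene was read from its brightest single-symbol probe set by mean over 8 arrays (19775 genes), a choice that favours probe sets that rise, and no dim gene was left out. Levels were not compared between genes.

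A mean per time was fitted to all genes on all 8 arrays, without a block, by lmFit and eBayes of limma 3.58.1 (R 4.3.3), which left 5 residual degrees of freedom. Tests were two-sided, adjusted by Benjamini-Hochberg over 19775 genes at 0.05, and errors are moderated SE. The fit was also run on simulated data with independent noise, whose planted changes were far larger than those of the genes described here. That run does not bear on differences of their size. The members and the wider lists were chosen with earlier results of these data known. Genes given by array were the 5 highest and 5 lowest at 10 h and the 3 and 3 at 2 h among members above background on all arrays of at least 1 of the times compared (ULK2 through its 2 h arrays; CTSL did not qualify), plus ULK1, BECN1, MAP1LC3B, GABARAPL1, SQSTM1, BNIP3L, TFEB, TFE3, LAMP1, CTSD, CTSL and CTSB; array values of ATG10, ATG12, CTSA and HEXA were added after they were seen. Of the wider lists the 4 highest and 4 lowest at 10 h were named. Alternatives covered the probe set, scaling, dim genes, variance model, array weights, blocks and arrays left out. The number of arrays limits the precision.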

Additional observations from a re-analysis of the deposited data

How the results depend on the processing

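Each result was recomputed under 20 alternatives, except that ULK2 and CTSL were not tested where dim genes were left out, which left 40 of the 42. The genes tested had 0 calls in all of them at 10 h against 0 h and at 10 h against 2 h; at 2 h against 0 h they had 1, ULK2 under array weights. Of 2514 recomputed values of single genes among the 42, 2421 moved by less than their SE in the main fit, 92 by more, and 1 passed the threshold. Many of the 2421 could not move. A log2 fold change stays the same under another variance model, without dim genes, or without arrays of the time not compared. It also stays the same under another choice of probe set for the 16 genes with 1 probe set. At 2 h against 0 h it stays the same with either block. Genes called in all at 2 h against 0 h (4) became 1 with probe sets averaged, 2 with suffix-free probe sets preferred or with the brightest at 0 h, 11 with a trended robust variance, 26 with array weights, 8 with the replicate block, and 8 with a block for the 3 low-median arrays. At 10 h against 0 h (70) these were 108 with the trended robust variance, 127 with weights, 110 with the low-median block and 30 without the 3 low-median arrays. At 10 h against 2 h (33) they were 57, 62, 52 and 12 in the same order. Leaving out 1 array at a time gave 4 to 7, 35 to 91 and 12 to 42 calls in these comparisons; the lowest 2 counts were without replicate 2 at 10 h, without replicate 1 they were 37 and 14, and the 7 was without replicate 3 at 2 h.

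The autophagy median at 10 h against 0 h was 0.16, 0.0494 with array weights and 0.0870 to 0.26 with an array left out; the lysosome median was 0.15, 0.0631 and 0.0448 to 0.23. The lowest of both was without replicate 2 and the highest without replicate 1 at 10 h; without replicate 2 at 0 h the lysosome median was 0.0856 and the autophagy median 0.11. At 2 h against 0 h the medians with an array left out were 0.0271 to 0.14 (autophagy) and 0.0127 to 0.14 (lysosome). At 10 h against 2 h the medians ran from -0.0677 to 0.23 (autophagy) and -0.0551 to 0.18 (lysosome) with an array left out, negative without replicate 2 at 10 h. After median centring the 10 h medians of the classes were 0.18 and 0.17, and after quantile normalization 0.15 and 0.15. With the replicate block, 32 of the 42 genes were positive at 10 h and GABARAPL1 had 0.77. Same-numbered arrays correlated at -0.268 to 0.264 in their deviations. With 2 arrays at 10 h the deviations mirror each other, so this range cannot decide whether the numbers pair arrays. The labels name no pairing, and none was assumed in the main fit. The causes of these shifts were not tested. At 10 h no gene with a difference under 2.01-fold was called.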
